A study of Mus musculus with 6 samples.

Results

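In mouse embryonic stem cells sorted as negative for an *Esrrb* reporter, the regions listed as bound by OCT4 or by NANOG were sorted into 3 groups. Regions with the same coordinates in both Esrrb-GFP negative lists were called co-bound (87 regions), those only in the OCT4 list OCT4 alone (10282 regions), and those only in the NANOG list NANOG alone (199 regions). The 3 groups hold 10568 of the 23767 distinct intervals in the 6 lists of the series. The cells were E-GFPd1, an E14Tg2a line with a 2a-linked destabilised GFP cassette at both *Esrrb* alleles, cultured in LIF/FCS and crosslinked before sorting. The sorted fractions were Esrrb-GFP high (the top 10%), Esrrb-GFP medium (the 15% immediately above the negative gate) and Esrrb-GFP negative, which 1 label field calls Esrrb-low. ChIP-Seq used a goat polyclonal antibody to OCT4 and a rabbit antibody to NANOG raised in-house, with 1 library for each factor and fraction, each from 3 pooled ChIPs. All fractions came from a single reporter line, so no other clone stands behind any value.

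OCT4, encoded by *Pou5f1*, is a POU-domain factor that binds the octamer sequence and, together with SOX2, a composite Oct-Sox sequence, and it is required in both naive and primed pluripotent cells. NANOG is a homeodomain factor that supports self-renewal of naive cells and often binds the same enhancers as OCT4. ESRRB is an orphan nuclear receptor whose gene is a target of NANOG and whose loss accompanies the exit from the naive state.

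A region here is an interval without score, signal or read number, so only presence in a list could be compared and the depth behind it is unknown. With 1 library per factor and fraction no p-value was computed. Shares are given with 95% Wilson intervals and differences between shares with 95% Newcombe intervals, in percentage points. They reflect how many regions were counted and say nothing of variation between cultures or ChIPs. The authors had removed a region from a fraction where under 50% of its highest signal was kept, so presence in one fraction is not independent of presence in another. Positions are on mm9 (NCBIM37), counted from 1.

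Sequences of the regions that the comparison turns on are printed from the plus strand of the assembly, with matches to the searched motifs in capitals. The co-bound region at *Nanog* is given for its 95 bases before the annotated gene start, which hold an exact Oct-Sox match on the minus strand (CATTGT, at most 1 base, ATGCAA), an OTX2-type match and a KLF match. The co-bound region in an intron of *Fgf5*, a growth factor gene that marks the formative and primed state, is given for its central 300 bases. They hold 2 ZIC matches (CCTGCTG), 1 FOX match (TGTTTAC) and 1 OTX2-type match (TAATCC), and no octamer. The regions whose closest protein-coding genes are *Ccrn4l* and *Tspan5*, both over 20 kb away, and *Msi2*, in an intron, are shown because an octamer (ATGCAAAT, or ATTTGCAT on the other strand) lies inside the co-bound interval. This was so in 6 of 87 co-bound intervals, against 948 of 10282 OCT4 alone and 2 of 199 NANOG alone intervals. The last sequence, an OCT4 alone region in an intron of *Sall1*, a zinc finger factor gene of the pluripotency network, holds an octamer beside 2 KLF matches (GGGNGTGG).
Nanog, co-bound (chr6:122657412-122657506): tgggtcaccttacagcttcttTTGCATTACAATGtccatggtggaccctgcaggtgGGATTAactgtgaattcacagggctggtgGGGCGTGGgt
Fgf5, co-bound (chr5:98684822-98685121): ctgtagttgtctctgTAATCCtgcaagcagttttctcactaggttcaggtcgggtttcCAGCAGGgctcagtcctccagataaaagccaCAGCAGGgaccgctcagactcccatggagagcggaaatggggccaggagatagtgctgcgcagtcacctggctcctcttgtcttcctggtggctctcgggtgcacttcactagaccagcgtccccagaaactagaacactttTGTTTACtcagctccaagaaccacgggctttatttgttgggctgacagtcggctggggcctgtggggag
Ccrn4l, co-bound (chr3:50686452-50686531): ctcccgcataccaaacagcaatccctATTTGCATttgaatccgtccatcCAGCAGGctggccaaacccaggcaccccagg
Tspan5, co-bound (chr3:138338992-138339131): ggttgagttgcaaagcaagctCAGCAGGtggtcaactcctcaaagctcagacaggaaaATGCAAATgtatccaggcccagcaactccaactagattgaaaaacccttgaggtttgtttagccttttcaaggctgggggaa
Msi2, co-bound (chr11:88347952-88348011): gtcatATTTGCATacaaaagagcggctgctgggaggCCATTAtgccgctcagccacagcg
Sall1 intron, OCT4 alone (chr8:91564512-91564571): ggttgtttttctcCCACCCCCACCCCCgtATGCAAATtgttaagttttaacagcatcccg

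NANOG alone regions were mostly shorter, and 3 of those near genes of the pluripotency lists are shown whole. They lie upstream of *Sall1*, in an intron of *Dnmt3a*, a de novo DNA methyltransferase gene, and in an intron of *Zscan10*, a zinc finger gene of embryonic stem cells. Each is 40 bp wide, and none holds an octamer. The *Dnmt3a* region holds 1 ZIC match. The fourth sequence is the central 300 bases of the part of the *Pgk1* region that lies before the transcript, with 1 TEAD match (GGAATG) in capitals. It is shown as the widest NANOG alone region, together with one on chromosome 8.
Sall1 upstream, NANOG alone (chr8:91569312-91569351): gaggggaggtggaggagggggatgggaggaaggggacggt
Dnmt3a, NANOG alone (chr12:3885112-3885151): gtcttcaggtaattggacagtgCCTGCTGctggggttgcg
Zscan10, NANOG alone (chr17:23738452-23738491): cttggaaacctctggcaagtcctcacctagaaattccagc
Pgk1, NANOG alone (chrX:103382105-103382404): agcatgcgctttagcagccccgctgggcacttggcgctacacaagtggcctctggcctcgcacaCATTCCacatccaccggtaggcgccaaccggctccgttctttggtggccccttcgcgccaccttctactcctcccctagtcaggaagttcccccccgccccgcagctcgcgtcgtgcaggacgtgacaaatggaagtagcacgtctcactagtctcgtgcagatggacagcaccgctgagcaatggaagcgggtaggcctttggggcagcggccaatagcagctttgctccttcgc

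Most regions of the small groups had a history in the other fractions, and the 2 groups that contained NANOG differed in the partner. NANOG was listed in Esrrb-GFP high cells at 75 of 87 co-bound regions (86.2%, 77.4 to 91.9) and at 162 of 199 NANOG alone regions (81.4%, 75.4 to 86.2), but at 1729 of 10282 OCT4 alone regions (16.8%, 16.1 to 17.6). OCT4 was listed in Esrrb-GFP high cells at 68 co-bound regions (78.2%, 68.4 to 85.5) and at 16 NANOG alone regions (8.0%, 5.0 to 12.7). The difference was 70.1 points (59.3 to 78.1). These groups were separated by OCT4 in Esrrb-GFP negative cells, and presence in one fraction is not independent of presence in another. A gap for OCT4 in the other fractions is therefore partly built into the grouping, as is the gap for NANOG from OCT4 alone regions. Counting error does not measure that part, and its size was not tested. In Esrrb-GFP medium cells OCT4 was listed at 90.8% of co-bound regions (82.9 to 95.3), 77.8% of OCT4 alone regions (77.0 to 78.6) and 9.0% of NANOG alone regions (5.8 to 13.8). Thus 177 of the 199 NANOG alone regions carried no OCT4 entry in any fraction, and 8521 of the 10282 OCT4 alone regions carried no NANOG entry.

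**Figure D1:**
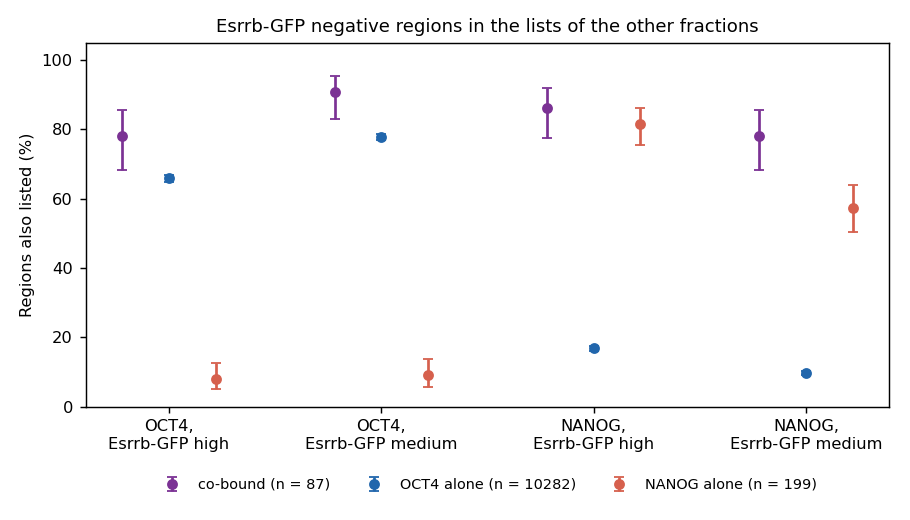
Share of the co-bound, OCT4 alone and NANOG alone regions of Esrrb-GFP negative cells (vertical axis, %) that are also in the OCT4 and NANOG lists of Esrrb-GFP high and medium cells. Points are shares and bars 95% Wilson intervals; for NANOG in Esrrb-GFP high cells co-bound regions stand at 86.2% and NANOG alone regions at 81.4%, against 16.8% of OCT4 alone regions.

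Co-bound regions divided almost evenly into those with both factors listed throughout and those without. At 43 of 87 co-bound regions (49.4%, 39.2 to 59.7) OCT4 and NANOG were in the lists of all 3 fractions, as they were in the intron of *Fgf5*. A further 13 lacked only NANOG in Esrrb-GFP medium cells and 10 lacked only OCT4 in Esrrb-GFP high cells. No co-bound region was absent from all lists of the other fractions, whereas 1141 OCT4 alone regions (11.1%, 10.5 to 11.7) and 18 NANOG alone regions (9.0%, 5.8 to 13.8) were listed in Esrrb-GFP negative cells only. For co-bound regions 0 of 87 allows a share of up to 4.2% by the Wilson interval. NANOG was in neither of the other fractions at 3 co-bound regions, and the region at *Nanog* itself was one of them.

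NANOG was listed in Esrrb-GFP medium cells more often at co-bound than at NANOG alone regions. The shares were 78.2% (68.4 to 85.5) and 57.3% (50.3 to 64.0), a difference of 20.9 points (9.04 to 31.02). Among regions at least 100 bp wide this difference was 3.15 points (-12.6 to 18.5). Width itself differed between the groups, since co-bound regions had a median of 120 bp (quartiles 80 and 200), OCT4 alone regions 80 bp (60 and 160) and NANOG alone regions 60 bp (40 and 100). Of NANOG alone regions 57 were 40 bp wide, the smallest width in the lists, against 6 of the co-bound regions. OCT4 alone regions where NANOG had been listed in another fraction (1761 regions) were wider, with a median of 160 bp, than those without NANOG anywhere, with 80 bp. NANOG alone regions had a median of 60 bp both where NANOG was listed in another fraction and where it was listed in Esrrb-GFP negative cells only. Overlapping peaks of all datasets were merged before the lists were made, so peaks of other datasets could widen a region. The part of width in the difference was not tested.

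Co-bound regions lay between genes more often than NANOG alone regions, while OCT4 alone regions differed from co-bound regions by less than counting error. The centre fell between annotated genes in 58 of 87 co-bound regions (66.7%, 56.2 to 75.7), 57.6% of OCT4 alone regions (56.6 to 58.5) and 49.7% of NANOG alone regions (42.9 to 56.6). Co-bound and NANOG alone regions differed by 16.9 points (4.4 to 28.3). The converse was seen in introns, which held 27 co-bound regions (22.3 to 41.4%), 38.1% of OCT4 alone (37.1 to 39.0) and 45.7% of NANOG alone regions (39.0 to 52.7). Co-bound and NANOG alone regions differed by -14.7 points (-25.9 to -2.3) in introns, and without repeated sequence by -14.3 points (-26.9 to 0.16). Exons held 2 co-bound, 448 OCT4 alone and 9 NANOG alone regions. The median distance to the closest transcription start site was 21680 bp for co-bound, 15464 bp for OCT4 alone and 15162 bp for NANOG alone regions.

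Within 5 kb of a start site the share of co-bound regions was 17.2% (10.7 to 26.5) and that of OCT4 alone regions 27.4% (26.6 to 28.3), a difference of -10.2 points (-16.7 to -0.87). Without regions in repeated sequence this difference was -7.7 points (-16.0 to 4.3). Within 1 kb the shares were 5.7% (2.5 to 12.8), 11.0% (10.4 to 11.6) and 9.5% (6.2 to 14.4) in the order co-bound, OCT4 alone and NANOG alone, and no pair differed beyond counting error. OCT4 alone regions with NANOG in another fraction lay within 1 kb of a start site in 6.0% (4.9 to 7.2), against 12.0% (11.3 to 12.7) of those where NANOG was listed nowhere.

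**Figure D2:**
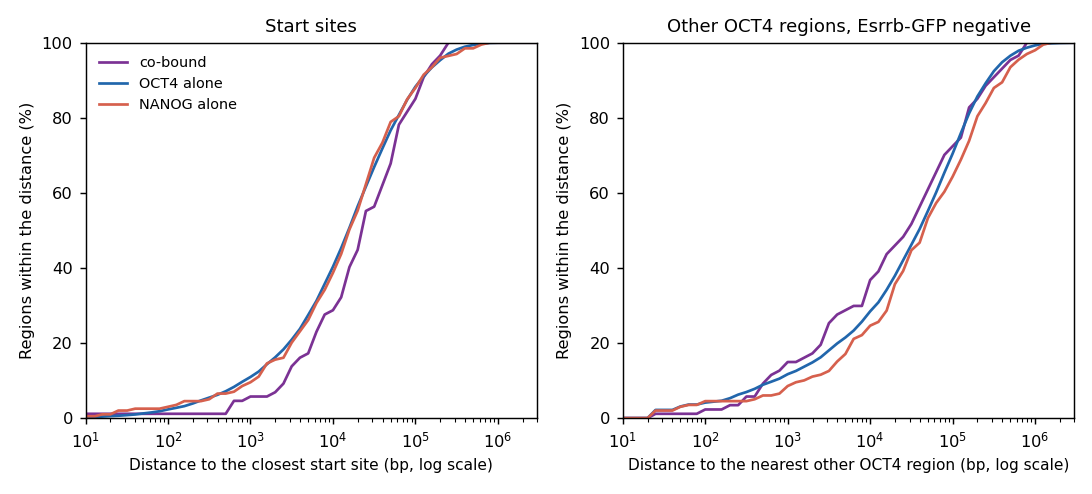
Cumulative share of co-bound (87), OCT4 alone (10282) and NANOG alone (199) regions (vertical axes, %) within a distance, on a log scale in bp, of the closest transcription start site (left) and of the nearest other OCT4 region of Esrrb-GFP negative cells (right). In the left panel the co-bound curve runs below the other two between 1 and 100 kb, with a median of 21680 bp, and in the right panel it runs above them at 10 kb, at 36.8%.

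Only 5 co-bound regions lay within 1 kb of an annotated transcript start of a protein-coding gene, each at a different gene. A transcript start need not be the gene start. They were at *Nanog*, at *Zp3*, which encodes a protein of the egg coat, at *Shc4*, a signalling adaptor gene, at *Phf21a*, which encodes a chromatin reader, and at *2010111I01Rik*, where the region was 307448 bp inside the gene, near the start of another transcript. All 5 had OCT4 in at least 1 other fraction. NANOG alone regions lay within 1 kb of a transcript start of 16 protein-coding genes, and none of those 16 regions had OCT4 in any fraction. They included *Ctnnb1*, which encodes beta-catenin, *Sox2*, the partner of OCT4, *Dnmt3a*, *Zscan10* and *Pgk1*. At *Ctnnb1* and *Dnmt3a* the region was 26227 bp and 79124 bp after the gene start. The other 11 were *Car14*, *Hax1*, *Mcts1*, *Mras*, *Olfr328*, *Os9*, *Psrc1*, *Slc35f2*, *Tomm34*, *Tox* and *Tspan18*. Of the 16 regions 8 were 40 bp wide, and 14 were in at least 1 list of the other fractions.

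An OCT4 region lay within 1 kb of 8.5% of NANOG alone regions, and another one within 1 kb of 11.7% of OCT4 alone regions (difference -3.16 points, -6.36 to 1.59). Of the 199 NANOG alone regions 17 lay within 1 kb of an OCT4 region, 12 of them within 500 bp and 9 within 100 bp. One of these was the 40 bp region in *Zscan10* (chr17:23738452-23738491), which began 40 bp after an OCT4 alone region that was listed for both factors in Esrrb-GFP high and medium cells. With edges within 500 bp counted as shared, 99 NANOG regions were co-bound in place of 87. The other OCT4 region nearest to a co-bound region was at a median of 29100 bp, against 39400 bp for OCT4 alone and 45900 bp for NANOG alone regions.

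Another OCT4 region lay within 10 kb of 32 co-bound regions (36.8%, 27.4 to 47.3), of 28.4% of OCT4 alone (27.6 to 29.3) and of 24.6% of NANOG alone regions (19.2 to 31.1). The difference between co-bound and NANOG alone regions, 12.2 points (0.8 to 24.0), did not hold at 1 kb (6.4 points, -1.2 to 15.9) or at 50 kb (7.7 points, -4.9 to 19.5).

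NANOG regions had other NANOG regions near them more often than OCT4 alone regions did. Another NANOG region lay within 10 kb of 11 co-bound regions (12.6%, 7.2 to 21.2), 15 NANOG alone regions (7.5%, 4.6 to 12.1) and 98 OCT4 alone regions (0.95%, 0.78 to 1.2). The median distance was still over a megabase in every group, at 2781240 bp, 2446900 bp and 3234860 bp in the same order. Only 3 stretches held 3 or more NANOG regions with gaps of at most 100 kb. The one with the most, chr8:19918332-20033051, held 9 of the 286 NANOG regions, 4 co-bound and 5 NANOG alone, with 6 OCT4 alone regions between them, around the predicted gene *Gm15319*. Without it, the share within 10 kb was 8.4% for co-bound, 5.2% for NANOG alone and 0.92% for OCT4 alone regions. Among regions outside repeated sequence it was 5.1% for co-bound (3 of 59), 4.9% for NANOG alone and 0.86% for OCT4 alone regions.

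A second stretch, on chromosome 6, held 2 co-bound regions and 1 NANOG alone region. The third, chr4:146773012-146899431, held 3 NANOG alone regions near the predicted genes *Gm13145*, *Gm13152* and *Gm16503*, and none of the 3 was in any list of the other fractions. Chromosome 4 carried 4 of the 18 NANOG alone regions that were listed in Esrrb-GFP negative cells only. Chromosome X carried 2 of them, both at *Pgk1*, and 10 of all 199 NANOG alone regions (5.0%, 2.8 to 9.0) against 197 OCT4 alone regions (1.9%, 1.7 to 2.2). Without repeated sequence these shares were 3.83% and 1.88%, a difference within counting error.

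The sequence under the co-bound regions was repeated in the genome more often than that of either other group. For each region the window of 100 bp on either side of its centre was cut into 31-base words and the occurrences of every 10th word were counted in the assembly on both strands. The median was 2 or more copies in 28 of 87 co-bound regions (32.2%, 23.3 to 42.6), 584 OCT4 alone regions (5.7%, 5.2 to 6.1) and 16 NANOG alone regions (8.0%, 5.0 to 12.7). Co-bound regions exceeded OCT4 alone regions by 26.5 points (17.6 to 36.9) and NANOG alone regions by 24.1 points (14.1 to 35.0). With 10 or more copies the counts were 7, 145 and 4. How reads that match several places were aligned is not given in the sources used here, and its part in these lists was not tested.

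All 9 NANOG regions of the stretch on chromosome 8 were in repeated sequence, with medians of 2 to 80.5 copies. That stretch held the 3 widest co-bound regions, of 740, 540 and 480 bp. Upstream of it on the same chromosome, near *4930467E23Rik*, lay 2 further co-bound regions, one with a median of 14717.5 copies and one with 7. Without the stretch 28.9% of co-bound regions (20.3 to 39.4) were in repeated sequence, against 5.7% of NANOG alone regions (3.2 to 9.9). Other co-bound regions with 10 or more copies included those with *Gm14496*, *Ralyl*, *Gm8257* and *Vmn2r121* as the closest protein-coding gene, named after their values were seen. A tandem repeat, a run of at least 20 bp with a period of 1 to 6 bases, lay in the window of 12.6% of co-bound (7.2 to 21.2), 5.3% of OCT4 alone (4.9 to 5.8) and 4.0% of NANOG alone regions (2.1 to 7.7), and in 6.3% of all listed regions.

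In windows with fewer than 2 copies 59 co-bound, 9698 OCT4 alone and 183 NANOG alone regions remained. There the share with a tandem repeat was 6.8% (2.7 to 16.2), 5.2% (4.8 to 5.7) and 4.4% (2.2 to 8.4), with no difference beyond counting error. NANOG was listed in Esrrb-GFP high cells at 91.5% of these co-bound (81.6 to 96.3), 17.2% of OCT4 alone and 82.0% of NANOG alone regions (75.8 to 86.9). The share of the NANOG list that was co-bound, 30.4% of 286 regions (25.4 to 36.0), became 24.4% of 242 (19.4 to 30.2).

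**Figure D3:**
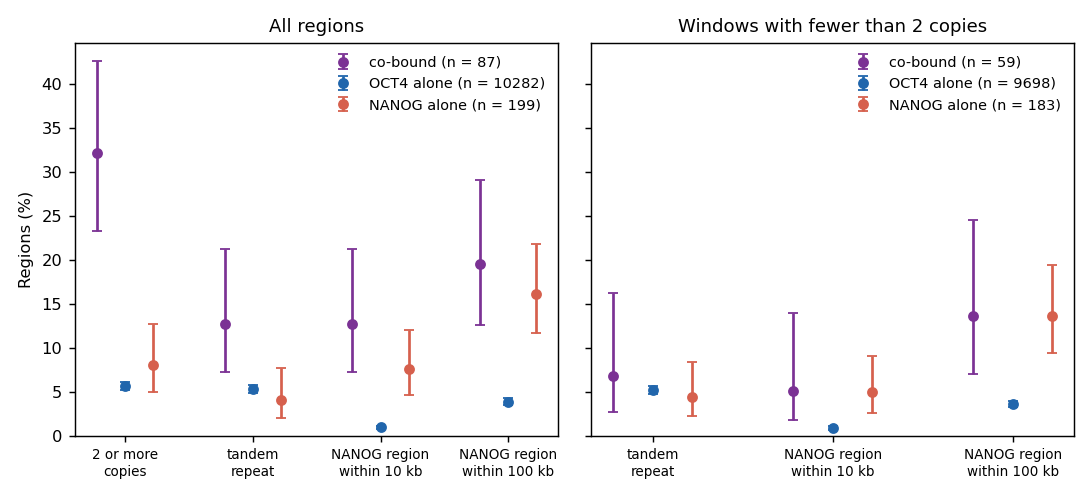
Share of co-bound, OCT4 alone and NANOG alone regions (vertical axis, %, with 95% Wilson intervals) whose window has a median of 2 or more copies, holds a tandem repeat, or has another NANOG region within 10 kb or 100 kb; all regions on the left, windows with fewer than 2 copies on the right. Repeated sequence stands at 32.2% for co-bound regions against 5.7% and 8.0%, and the tandem repeat shares come together on the right.

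The octamer was less frequent in NANOG alone than in OCT4 alone regions. A match within 100 bp of the centre was found in 1155 OCT4 alone regions (11.2%, 10.6 to 11.9), 7 co-bound regions (8.0%, 4.0 to 15.7) and 3 NANOG alone regions (1.5%, 0.5 to 4.3). NANOG alone regions were 9.7 points below OCT4 alone regions (difference -9.7, -10.9 to -6.8). Co-bound regions were 6.54 points above NANOG alone regions (1.56 to 14.2), but the interval included 0 within 50 bp of the centre (4.24 points, -0.083 to 11.3) and with 1 mismatch allowed (9.07 points, -1.84 to 20.7). With 1 mismatch co-bound regions, at 32.2%, were also below OCT4 alone regions, at 47.7% (-15.5 points, -24.5 to -5.11). In windows with fewer than 2 copies that difference was -6.29 points (-18.1 to 6.44). Co-bound regions there exceeded NANOG alone regions by 17.2 points (3.68 to 31.2) with 1 mismatch. Of all 23767 listed regions 7.9% held an octamer, as did 1.6% of consecutive windows of the same length on chromosome 19. Every one of the 7 co-bound matches lay in a window with fewer than 2 copies, so among those 59 regions the share was 11.9% (5.9 to 22.5), beside 11.5% of OCT4 alone regions. The sequences printed above under *Ccrn4l*, *Tspan5* and *Msi2* are 3 of the 7. The exact Oct-Sox sequence was found in 35 OCT4 alone windows and in none of the other groups. The match at *Nanog* lies outside the window of its region, whose centre is further downstream.

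With up to 2 mismatches, a setting chosen after the exact match had been counted, an Oct-Sox sequence was found in 20.1% of OCT4 alone (19.4 to 20.9), 16.1% of co-bound (9.8 to 25.2) and 8.0% of NANOG alone windows (5.0 to 12.7). The background was 15.3% of all listed regions and 3.8% of the windows on chromosome 19. The order was the same as for the octamer, with NANOG alone regions lowest, and co-bound and OCT4 alone regions did not differ beyond counting error.

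ZIC matches showed the other pattern and were as frequent in NANOG alone as in co-bound regions. They were found in 46 NANOG alone (23.1%, 17.8 to 29.4), 20 co-bound (23.0%, 15.4 to 32.9) and 1222 OCT4 alone windows (11.9%, 11.3 to 12.5), in 13.8% of all listed regions and in 4.3% of the windows on chromosome 19. The excess over OCT4 alone regions was 11.2 points (5.9 to 17.6) for NANOG alone and 11.1 points (3.5 to 21.0) for co-bound regions. Among OCT4 alone regions the share was 18.7% (16.9 to 20.6) where NANOG had been listed in another fraction and 10.5% (9.8 to 11.1) where it had not. ZIC factors are zinc finger proteins, some of which act in pluripotent cells. The 7-letter sequence can be matched by other factors, and no ZIC binding was measured here.

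The ESRRB sequence (TCAAGGTCA) was rare in every group, in 2 co-bound, 4 NANOG alone and 55 OCT4 alone windows, with 1.4% of all listed regions and 0.47% of chromosome 19 windows. NANOG alone regions exceeded OCT4 alone regions by 1.48 points (0.24 to 4.52), with shares of 2.0% (0.8 to 5.1) and 0.53% (0.41 to 0.70). The corresponding difference for co-bound regions, 1.76 points (0.09 to 7.47), rests on 2 regions and turned sign within 50 bp of the centre. A core of the CTCF sequence (GGNGGCAG) was found in 16.1% of co-bound (9.8 to 25.2), 8.5% of OCT4 alone (8.0 to 9.1) and 7.0% of NANOG alone windows (4.2 to 11.5), with 8.3% of all listed regions and 5.3% of chromosome 19 windows. Co-bound regions exceeded OCT4 alone regions by 7.58 points (1.30 to 16.7), and with 1 mismatch allowed the sign turned. Without repeated sequence the CTCF difference was 6.59 points (-0.447 to 17.9). KLF matches were found in 17.2%, 11.8% and 11.6% of the co-bound, OCT4 alone and NANOG alone windows, with 11.9% of all listed regions and 4.95% of chromosome 19 windows, and no pair differed beyond counting error. Without repeated sequence co-bound regions exceeded OCT4 alone regions for KLF (22.0% against 12.1%, 9.93 points, 1.22 to 22.0), TEAD (25.4% against 15.7%, 9.77 points, 0.37 to 22.2), SOX (11.9% against 5.2%, 6.62 points, 0.60 to 17.3) and FOX (8.5% against 3.6%, 4.89 points, 0.07 to 14.8). These rest on 13, 15, 7 and 5 co-bound regions of 59. They come from 14 motifs, under a filter chosen after the data were seen. Against NANOG alone regions the interval of each of them included 0.

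The SOX sequence (CATTGTT) was found in 9.2% of co-bound and 5.0% of both other groups, with 6.3% of all listed regions and 3.9% of chromosome 19 windows. A NANOG-type homeobox sequence (TAATGG) was found in 5.7%, 7.6% and 8.5% of co-bound, OCT4 alone and NANOG alone windows, close to the 9.6% of all listed regions and 8.3% of chromosome 19 windows. The OTX2-type, FOX and TEAD sequences and the E-box (CACGTG), ETS (CCGGAAG) and NRF1 (GCGCATGCG) sequences differed between no pair of groups beyond counting error over all regions. The median GC content of the windows was 48.8% in co-bound and NANOG alone regions and 48.3% in OCT4 alone regions.

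**Figure D4:**
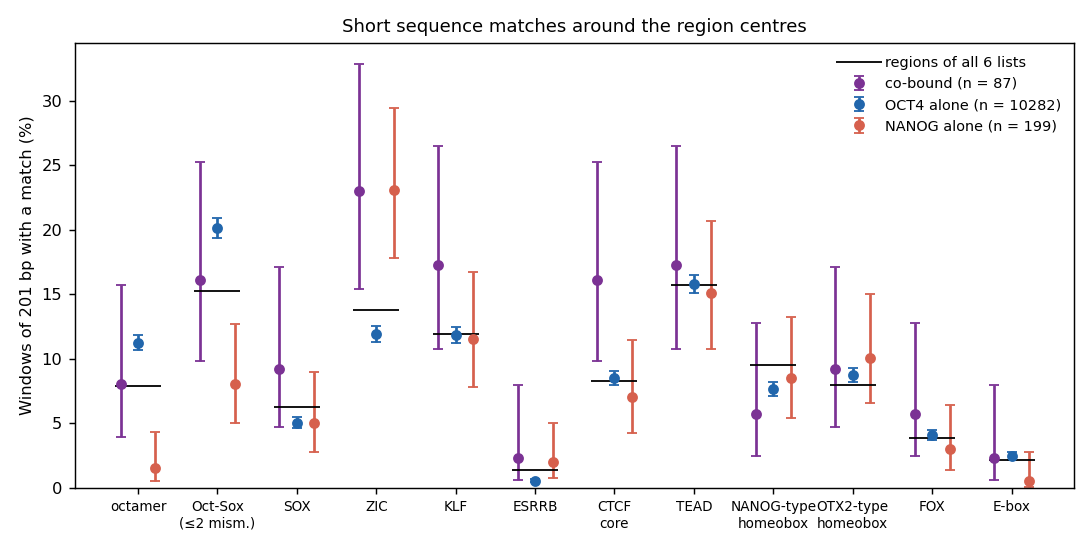
Share of windows of 100 bp on either side of the centres of co-bound, OCT4 alone and NANOG alone regions (vertical axis, %) with a match to 12 short sequences; bars are 95% Wilson intervals and black lines the share over the distinct regions of all 6 lists. The octamer stands at 1.5% in NANOG alone regions against 11.2% in OCT4 alone regions, and ZIC at 23.0% and 23.1% in the groups with NANOG against 11.9%.

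Of the 22380 annotated protein-coding genes 60 (0.268%) had a co-bound region within 20 kb of the gene body, 6340 (28.3%) had an OCT4 alone region and 161 (0.719%) had a NANOG alone region. No protein-coding gene lay within 20 kb of 38 co-bound, 3495 OCT4 alone and 66 NANOG alone regions. Of the 60 genes with a co-bound region 38 (63.3%, 50.7 to 74.4) also had an OCT4 alone region, and these are 0.6% of the 6340 genes. Of the 161 genes with a NANOG alone region 85 (52.8%, 45.1 to 60.4) also had an OCT4 alone region, which is 1.3% of the 6340. Only 6 genes had all 3 kinds of region. They were *Tead4*, a transcription factor gene of the Hippo pathway, *Lmx1b*, a LIM homeobox gene, *Trim71*, an RNA-binding ubiquitin ligase gene, *Slc2a3*, a glucose transporter gene, *Ptprg*, a receptor phosphatase gene, and *Gm15319*.

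Among 149 genes in 6 lists of pluripotency, lineage, signalling and chromatin genes, 95 (63.8%) had an OCT4 alone region, 4 a NANOG alone region and 2 a co-bound region. The lists differ from all genes in many ways, among them gene length, so their share is a description beside the 28.3% of all genes. In the core pluripotency list OCT4 alone regions lay near 13 of 15 genes, among them *Pou5f1*, *Sox2*, *Sall4*, *Lin28a* and *Tdgf1*, and NANOG alone regions near 3 of 15, *Sox2*, *Sall1* and *Zscan10*. In the naive list 12 of 19 genes had an OCT4 alone region, *Nanog* had the only co-bound region and no gene had a NANOG alone region. Of the formative and primed list 14 of 22 had an OCT4 alone region, *Fgf5* a co-bound and *Dnmt3a* a NANOG alone region. None of 37 lineage, 31 signalling or 25 chromatin genes had a co-bound or NANOG alone region, while 21, 18 and 17 of them had an OCT4 alone region. Over all protein-coding genes only 0.268% had a co-bound and 0.719% a NANOG alone region. At such shares lists this short would mostly hold none, so these absences say nothing particular about the listed genes.

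At *Nanog* the co-bound region (chr6:122657412-122657831, 420 bp) covered the start of the gene, with its centre in an exon 114 bp after the gene start. OCT4 was listed there in Esrrb-GFP high and medium cells, and NANOG in Esrrb-GFP negative cells only. Without signal values, this entry does not show that NANOG binding was gained there. An OCT4 alone region of 40 bp lay 1521 bp beyond the end of the gene. At *Fgf5* the single region (chr5:98684792-98685151, 360 bp), 1768 bp after the gene start, was in all 6 lists. Another co-bound region of 360 bp (chr15:61924252-61924611), also in all 6 lists, lay in an intron of the non-coding gene *Pvt1*, 105454 bp from the start of *Myc*, a growth-promoting factor gene, and was named after its values were seen.

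*Pou5f1* had 4 OCT4 alone regions, all upstream. The widest (chr17:35641692-35642431, 740 bp) and the one next to it (chr17:35640952-35641091) had been listed for NANOG in Esrrb-GFP high and medium cells, and were OCT4 alone in Esrrb-GFP negative cells. *Sox2* had 6 OCT4 alone regions, of which 2 had NANOG in both other fractions and 1 in Esrrb-GFP high cells only. The NANOG alone region at *Sox2* (chr3:34549332-34549371, 40 bp) spanned the first base of the coding sequence and was in no other list. *Sall1* had 3 OCT4 alone regions and a NANOG alone region whose nearest edge lay 1251 bp before its start (chr8:91569312-91569351), where NANOG was listed in all 3 fractions and OCT4 in none. *Zscan10* had 4 OCT4 alone regions and 1 NANOG alone region.

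*Esrrb* had 2 OCT4 alone regions in introns, at chr12:87839812-87840111 and chr12:87849472-87849691. OCT4 was listed at both in every fraction, and NANOG at the first in Esrrb-GFP high and medium cells. *Tet2*, which encodes an enzyme that oxidises methylated cytosine, had 1 OCT4 alone region of 40 bp in an intron. *Klf4*, *Zfp42* and *Otx2* had no region of any group within 20 kb. Regions listed only in Esrrb-GFP high or medium cells belong to none of the 3 groups. Loss of OCT4 or NANOG from other regions of these genes is therefore not shown.

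**Figure D5:**
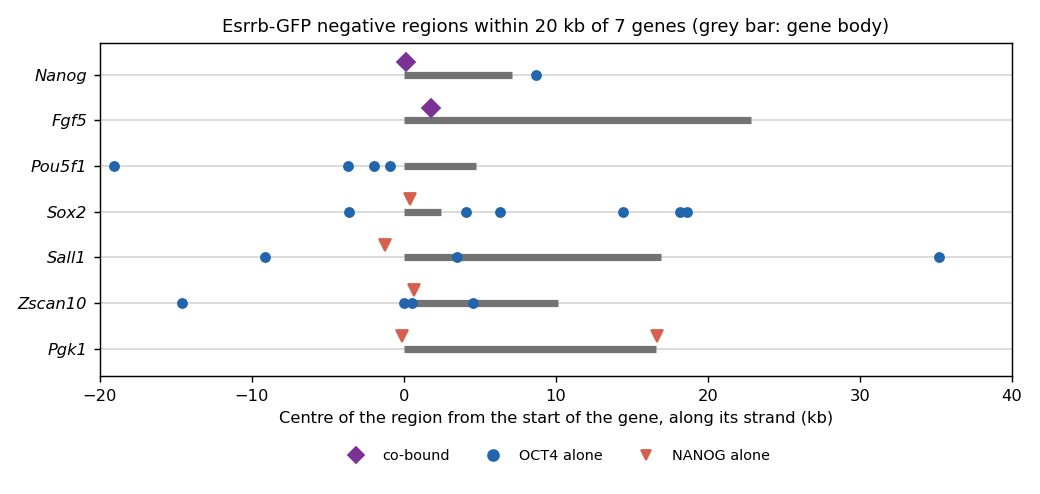
Position of the regions of Esrrb-GFP negative cells within 20 kb of 7 genes, as the distance of the region's centre from the gene start along its strand (horizontal axis, kb; grey bars are gene bodies). Diamonds are co-bound, circles OCT4 alone and triangles NANOG alone regions; *Nanog* and *Fgf5* each have 1 co-bound region near the start, and *Pgk1* has NANOG alone regions at both ends and no OCT4 region.

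*Pgk1*, which encodes a glycolytic enzyme, carried NANOG alone regions at both ends of the gene. One of 480 bp (chrX:103382072-103382551) covered the start and one of 180 bp (chrX:103399032-103399211) the end. Neither was in any other list, and the nearest OCT4 region was 415680 bp from the first. *Ctnnb1* carried a NANOG alone region of 220 bp (chr9:120864452-120864671) in an exon, with its centre at -14 bp from an annotated alternative start and with NANOG also in Esrrb-GFP high cells. Of the other widest NANOG alone regions 3 had *Zfp1*, *Speer4c* and *1110032A04Rik* as the closest protein-coding gene, and the last 2 lay in sequence with medians of 3 and 8 copies. *Mras*, a small GTPase gene, had 2 NANOG alone regions of 40 bp in exons and 3 OCT4 alone regions.

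The genes with the most OCT4 alone regions were mostly long. *Fgfr2*, a fibroblast growth factor receptor gene, had 28 and the predicted gene *Gm20388* had 20, but the annotation gives them bodies of 3009069 bp and 4434882 bp. *Etl4* had 17 and *Magi2* 11, in 900934 bp and 1477753 bp. *Arfip1*, *Arhgap26* and *Dlgap1* had 9 each. *Ebf1* and *Meis2*, both developmental transcription factor genes, had 10 each, in 390775 bp and 202776 bp. *Hoxc10*, a homeobox gene of the HoxC cluster, had 10 within 20 kb of a body of 5098 bp. These 10 were 40 to 160 bp wide, none had NANOG in any fraction, and 3 were in Esrrb-GFP negative cells only.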

How the data were processed

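ChIP-Seq for OCT4 and NANOG in 3 sorted fractions gave 6 libraries, 1 per factor and fraction. The authors aligned the reads (Bowtie, in the submitters' notes, version not given in the sources used here) to mm9 within GeneProf. Peaks came from SISSRs, those that overlapped between datasets were joined, and a region was dropped from a fraction that kept under 50% of its highest depth-normalized signal. The deposited lists hold start and end positions and no other value. Widths are multiples of 20 bp.

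Samples were grouped by the antibody and fraction in their labels, with nothing to pair. Intervals of the negative lists were matched by identical coordinates. Genes and UTRs came from GENCODE vM1 on the same assembly (37310 genes, 22380 protein-coding), with start sites of all transcripts. Genes count within 20 kb of the body. Windows of 100 bp on either side of centres were searched on both strands for 14 motifs; overlapping motifs were counted separately (the octamer shares letters with Oct-Sox). Copies are medians over 31-base words. Alternatives covered matching, width, distances, windows, mismatches, autosomes and repeated sequence. The last, and Oct-Sox mismatches, were chosen after the data were seen.

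Named genes are list members with a co-bound or NANOG alone region; genes with such a region within 1 kb of a start; genes closest to the 5 widest of each; the 10 with most OCT4 alone regions; and 10 genes of the study. The groups, gene lists and motifs were chosen with earlier results of these data known. All members passed, with no filter. Of the lists, *Sox1*, *Tfap2a* and *Tfap2c* were not matched to the annotation. Intervals came from statsmodels 0.14.6 and sequences from pysam 0.24.0, run with numpy 2.4.6 and scipy 1.17.1 under Python 3.11.15. Figures were drawn in matplotlib 3.10.9. Before use, each function was tested on simulated intervals and sequences with known answers. A few items are not reported here.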

Additional observations from a re-analysis of the deposited data

How the results depend on the processing

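Of 156 alternative values for 39 differences between groups, 131 kept their direction and the position of their interval relative to 0. Matching edges within 1 kb gave shares co-bound of 36.4% of NANOG and 1.16% of OCT4 regions, a width of at least 60 bp gave 36.3% of NANOG regions, and at least 100 bp gave 48.4% and 1.18%, with 4928 OCT4 alone and 63 NANOG alone regions. Without repeated sequence, an alternative chosen after seeing the data like those on copies and Oct-Sox mismatches, they were 24.4% and 0.605%. No paired analysis was possible because every factor in a fraction has a single library.

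At a width of at least 100 bp the following intervals came to include 0: co-bound minus NANOG alone for NANOG in Esrrb-GFP medium (3.15 points), co-bound minus OCT4 alone for OCT4 in high (3.02) and medium (1.79), NANOG alone minus OCT4 alone for introns (11.9) and between genes (-10.9), and co-bound minus NANOG alone for another OCT4 region within 10 kb (9.23). The same happened without repeated sequence for OCT4 in medium, co-bound minus OCT4 alone (10.2), introns, co-bound minus NANOG alone (-14.3) and NANOG alone minus OCT4 alone (6.09), between genes (-6.54), OCT4 neighbours counted among such regions alone (10.3), and tandem repeats against OCT4 alone (1.57) and NANOG alone (2.41). With protein-coding genes only it did for introns (4.52) and between genes (-5.65), NANOG alone minus OCT4 alone. For OCT4 neighbours, co-bound minus NANOG alone, it did at 1 kb (6.40), 50 kb (7.65) and on autosomes (11.4). For the octamer, co-bound minus NANOG alone, it did within 50 bp (4.24) and with 1 mismatch (9.07). For the CTCF core, co-bound minus OCT4 alone, it did without repeated sequence (6.59).

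Intervals came to lie off 0 for start sites within 2.5 kb (-9.09) and 5 kb (-10.2) and for the octamer with 1 mismatch (-15.5), all co-bound minus OCT4 alone, and for repeated sequence, NANOG alone minus OCT4 alone, at 3 or more copies (2.75) and at 100 bp (8.44). Without repeated sequence they also did for KLF (9.93), TEAD (9.77), SOX (6.62) and FOX (4.89), co-bound minus OCT4 alone. Signs turned for ESRRB, co-bound minus OCT4 alone, within 50 bp (-0.253), and for the CTCF core with 1 mismatch against OCT4 alone (-4.3) and NANOG alone (-6.71). The causes were not tested. The 87 and 199 regions limit the precision, and presence in a list is the only measure.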
